A study of Homo sapiens with 36 samples.

Results

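Neurexins, neuroligins and the leucine-rich repeat transmembrane proteins of the LRRTM family were followed through RNA-seq of human neural stem cells (hNSC). The members were the listed synaptic adhesion genes of these families: NRXN2 and NRXN3, NLGN1, NLGN2 and NLGN3, and LRRTM1, LRRTM2, LRRTM3 and LRRTM4. All 9 were among the 28516 genes of the count table, and all 9 were among the 19689 genes with at least 10 counts over all libraries, which were tested. The cells were a commercial hNSC line infected with lentivirus and harvested 48 h later, with 6 libraries for each of 6 conditions. In MEIS1-OE and MEIS2-OE, the gene of MEIS1 or MEIS2, homeobox transcription factors, was targeted by CRISPR activation, in which an inactive Cas9 recruits transcriptional activators. In MEIS1-KO and MEIS2-KO, the same genes were targeted by cutting Cas9 with a mix of guides for each gene. The matching machinery with non-targeting guides gave the control conditions, ctrl-OE for activation and ctrl-KO for knockout. The labels do not say whether the 6 libraries of a condition came from separate cultures, and p-values then measure only the spread between these libraries.

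Neurexins are receptors of the presynaptic membrane. Their extracellular part binds neuroligins and LRRTM proteins on the opposite cell, and this pairing across the cleft helps to organise synapses: LRRTM proteins and NLGN1 are known mainly from excitatory synapses, NLGN2 from inhibitory ones and NLGN3 from both. In neural stem cells, which have no synapses, these genes are read here as mRNA only.

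The total count per library ran from 15429985 to 22940493, with a median of 20324720. MEIS1 rose from a mean of 17.8 CPM (counts scaled to library size with TMM factors) in ctrl-OE to 310.2 in MEIS1-OE, and fell from 25.7 in ctrl-KO to 8.96 in MEIS1-KO. MEIS2 rose from 22.6 CPM to 824 in MEIS2-OE and fell from 25.8 to 12.1 in MEIS2-KO, so each targeted gene moved as labelled. All 8 neural stem cell markers (NES, SOX2, SOX1, VIM, PAX6, HES1, FABP7 and MSI1) had a mean above 1 CPM in every condition. Of 11 neuronal markers, RBFOX3 and ELAVL4 had at most 1 count in a library and were not tested, and DCX and STMN2 were under 1 CPM in every condition. Only these 4 were under 1 CPM, and the tested neuronal markers summed to 473 to 1119 CPM over all libraries. Neuronal transcripts were thus present beside the stem cell markers. Summed astrocyte markers lay between 1.93 and 6.24 CPM over all libraries, and summed oligodendrocyte markers between 44.2 and 70.0 CPM. Over the 500 most variable genes, 30 of 36 libraries lay nearest to the mean of their own condition. The other 6 were ctrl-KO, MEIS1-KO and MEIS2-KO libraries, each nearest to another of the conditions made with cutting Cas9, and 4 of them were MEIS1-KO.

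Promoter sequence is shown for LRRTM3 and NRXN3, the members that passed the test in both knockouts, since MEIS proteins are known to bind the motif TGACAG. Each window holds the 250 bases before a start site of the RefSeq promoter table (build GRCh38.p14), is written 5′ to 3′ on the plus strand, and was placed in GRCh37, the assembly of the authors' hg19 alignment, by an exact match. Of the LRRTM3 windows, that directly before the first base of the gene held no TGACAG; the other is printed. This window, at chr10:68771774-68772023, lies within the annotated LRRTM3 gene, before a downstream start site and in no annotated exon. Capitals mark the single TGACAG, 113 bases before that start site. None of the NRXN3 windows held a TGACAG on either strand. The one printed, at chr14:78636466-78636715, lies directly before the first base of the annotated gene. The printed windows of LRRTM3 and NRXN3 were thus not picked by the same position, and they are not a comparison of the genes.
LRRTM3: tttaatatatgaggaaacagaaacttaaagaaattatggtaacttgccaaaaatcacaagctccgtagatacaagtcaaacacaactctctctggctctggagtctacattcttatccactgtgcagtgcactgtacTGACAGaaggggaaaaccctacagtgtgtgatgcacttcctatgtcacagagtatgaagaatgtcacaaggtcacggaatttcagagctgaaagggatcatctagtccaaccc
NRXN3: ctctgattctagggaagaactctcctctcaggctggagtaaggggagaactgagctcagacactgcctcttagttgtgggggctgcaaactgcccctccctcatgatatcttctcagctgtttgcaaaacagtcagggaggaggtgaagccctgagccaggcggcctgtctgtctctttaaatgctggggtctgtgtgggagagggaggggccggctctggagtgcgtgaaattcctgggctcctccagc
The table held 11 windows for 7 of the 9 members, without NRXN2 and LRRTM4. The motif, searched on both strands, was in 1 of these 11 windows and in 4577 of all 35116 windows of that length (13.0%). A match is only a match of letters and is not evidence of binding.

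The members differed widely in level. Per kb of exon, NLGN2 was first in every condition, at 40.9 ± 3.39 CPM per kb in ctrl-OE and 45.4 ± 2.31 in ctrl-KO (mean ± SD, n = 6), and its range overlapped that of no other member. In ctrl-OE, NRXN2 followed at 1.11 CPM per kb and LRRTM2 at 1.02, with overlapping ranges. NRXN3 at 0.656, NLGN3 at 0.627 and NLGN1 at 0.566 CPM per kb came next, each overlapping its neighbour in the order. LRRTM3 stood at 0.331 CPM per kb, LRRTM4 at 0.155 and LRRTM1 was last at 0.0392. In ctrl-KO the order changed, with LRRTM2 second at 1.82 CPM per kb and NRXN2 seventh at 0.438, below NRXN3, NLGN1, LRRTM3 and NLGN3 at 1.15, 1.03, 0.992 and 0.985 CPM per kb. These 4 overlapped each with the next. With the longest transcript in place of all exons as the length, NLGN2 was still first and LRRTM1 last in every condition, but the middle of the order moved: NLGN3 was second in ctrl-KO and LRRTM2 the third, while NRXN2 was again seventh.

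**Figure D1:**
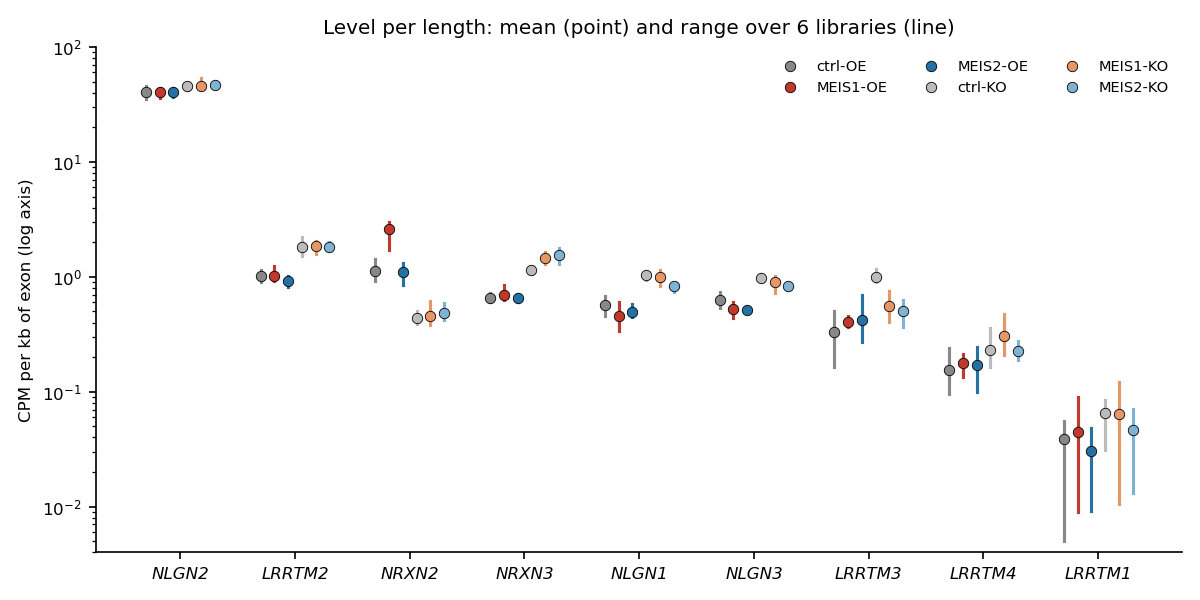
Level of each member in CPM per kb of exon, on a log axis, in the 6 conditions (colours). Points are means over 6 libraries and lines run from the lowest to the highest library. The lowest LRRTM1 library in ctrl-OE was at 0, which a log axis cannot show. Its line is cut off just above the lower end of the axis, which is not a measured value. NLGN2 lies far above the rest at 40.2 to 46.5 CPM per kb, and LRRTM1 lies lowest.

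Of the members, 3 of 9 passed the test in MEIS1-OE against ctrl-OE (adjusted p below 0.05, edgeR quasi-likelihood test over all tested genes), compared with 9.10% of all tested genes. NRXN2 rose (5.52% of all genes rose), NLGN1 and NLGN3 fell (3.58% fell), and 1 of 9, NRXN2, also exceeded the log2(fold-change) of 0.58 that the study added (2.84% of all genes). The median log2(fold-change) of the 9 members was 0.08, beside 0.00 over all tested genes. In MEIS2-OE against ctrl-OE, 0 of 9 passed with edgeR or with DESeq2, where 1.35% of all genes passed, and 1 member, NLGN3, had an unadjusted p below 0.05. In MEIS1-KO against ctrl-KO, 2 of 9 passed (1.46% of all genes): NRXN3 rose (1.03% of all genes rose) and LRRTM3 fell (0.432% fell), and LRRTM3 also exceeded 0.58 in size (0.290% of all genes). In MEIS2-KO against ctrl-KO, 4 of 9 passed (10.0% of all genes): NRXN3 rose (4.04% rose), while LRRTM3, NLGN1 and NLGN3 fell (5.98% fell), and LRRTM3 again exceeded 0.58 (1.58% of all genes). The OE comparisons share the ctrl-OE libraries and the KO comparisons share the ctrl-KO libraries, so the values of a pair are not independent of each other. The guides of ctrl-KO were non-targeting, so each knockout differs from it in targeted DNA cutting and in its MEIS gene. These cannot be told apart here.

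**Figure D2:**
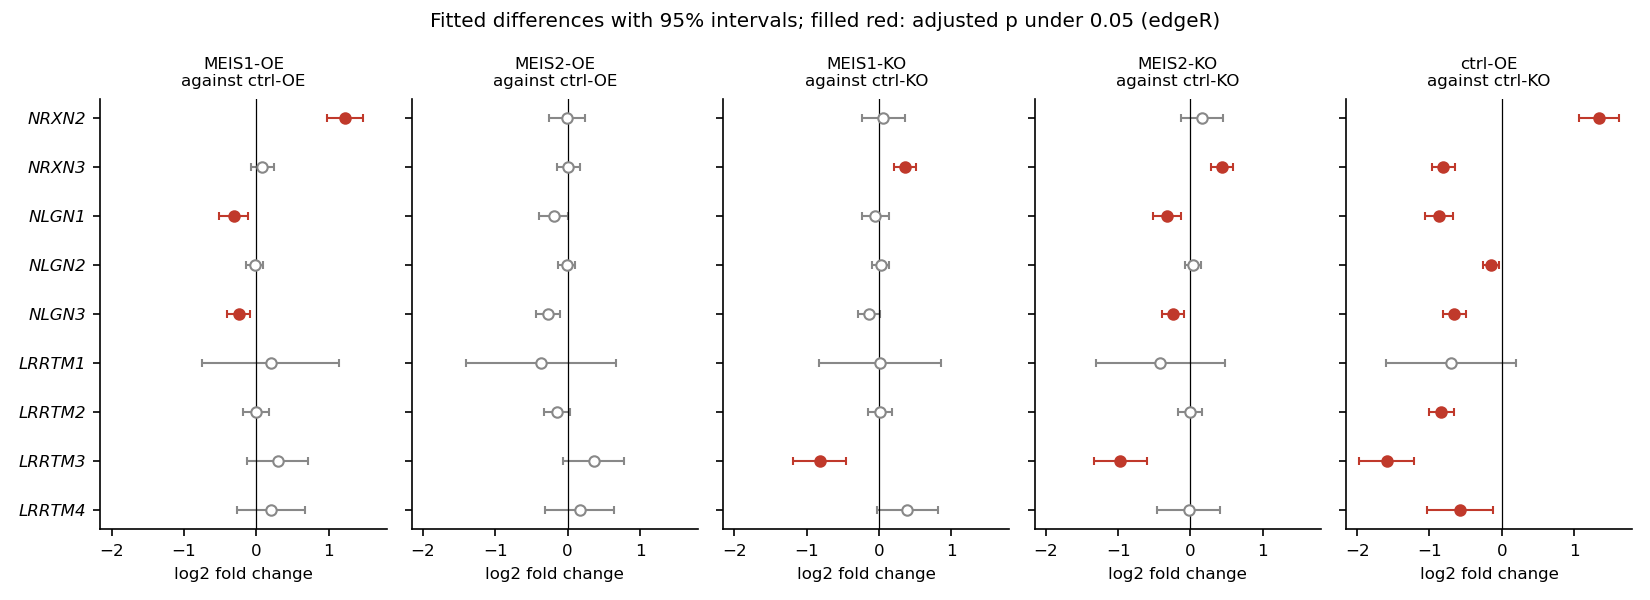
Fitted log2(fold-change) of the 9 members (rows) in 5 comparisons (panels), with 95% intervals. Filled red points passed the test at an adjusted p below 0.05 in edgeR; NRXN2 stands out at 1.23 in MEIS1-OE and LRRTM3 at -0.82 and -0.97 in the knockouts.

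NRXN2, a neurexin gene on chromosome 11 (GRCh37 chr11:64373646-64490669, minus strand), was the member with the largest rise. It was named by the study for its rise in these same libraries, so its direction here is not independent evidence. In ctrl-OE its level ran from 12.9 to 20.02 CPM with a median of 14.9, and in MEIS1-OE from 23.8 to 41.8 CPM with a median of 38.9. All 6 MEIS1-OE libraries lay above all 6 control libraries. The means were 15.6 ± 2.45 and 36.4 ± 6.92 CPM (SD, n = 6), a fold change of 2.34, and the log2(fold-change) was 1.23 (standard error, SE, 0.12, 95% interval 0.98 to 1.47, adjusted p = 4.5e-10 with edgeR). It passed under all 13 alternatives that were tried. In MEIS2-OE, NRXN2 ran from 11.9 to 18.4 CPM and its mean was 15.4 ± 2.80. Its log2(fold-change) against ctrl-OE was -0.01, with an interval from -0.26 to 0.24.

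The difference between the activation conditions was tested directly. In MEIS1-OE against MEIS2-OE, NRXN2 was the only 1 of 9 members to pass (7.75% of all genes), at a log2(fold-change) of 1.24 with a standard error of 0.12 and an adjusted p of 3.8e-10 in edgeR. In the knockouts, NRXN2 was low in all 3 conditions, with means of 6.13 ± 0.733 CPM in ctrl-KO, 6.35 ± 1.25 in MEIS1-KO and 6.81 ± 0.874 in MEIS2-KO. The ranges overlapped, and the intervals of the log2(fold-change) ran from -0.24 to 0.35 in MEIS1-KO and from -0.13 to 0.45 in MEIS2-KO. The MEIS1 contrast, which is the effect of activation minus the effect of knockout, was 1.17 on the log2 scale for NRXN2 (SE 0.19, adjusted p = 6.3e-05 with edgeR).

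NRXN3, the neurexin gene on chromosome 14 (GRCh37 chr14:78636716-80334634, plus strand), whose window before the first base is printed above, was higher in both knockout conditions than in ctrl-KO. Its level ran from 17.0 to 18.6 CPM in ctrl-KO, from 20.2 to 25.7 in MEIS1-KO and from 20.2 to 27.8 in MEIS2-KO, with medians of 18.0, 22.6 and 24.3 CPM. Every library of either knockout lay above all 6 controls. The means were 17.9 ± 0.596, 22.9 ± 1.87 and 24.1 ± 2.81 CPM. The log2(fold-change) was 0.35 in MEIS1-KO (SE 0.07, adjusted p = 0.00609) and 0.43 in MEIS2-KO (SE 0.07, adjusted p = 1.6e-04), both with edgeR, and neither exceeded the study's added threshold of 0.58. Without replicate 3 or replicate 5 of every condition, the MEIS1-KO call was lost at adjusted p of 0.0738 and 0.0629, while the MEIS2-KO call held under all 13 alternatives. Under activation NRXN3 stayed near 10.2 CPM in ctrl-OE, with means of 10.8 ± 1.34 CPM in MEIS1-OE and 10.3 ± 0.751 in MEIS2-OE and intervals of the log2(fold-change) from -0.08 to 0.24 and from -0.15 to 0.17.

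**Figure D3:**
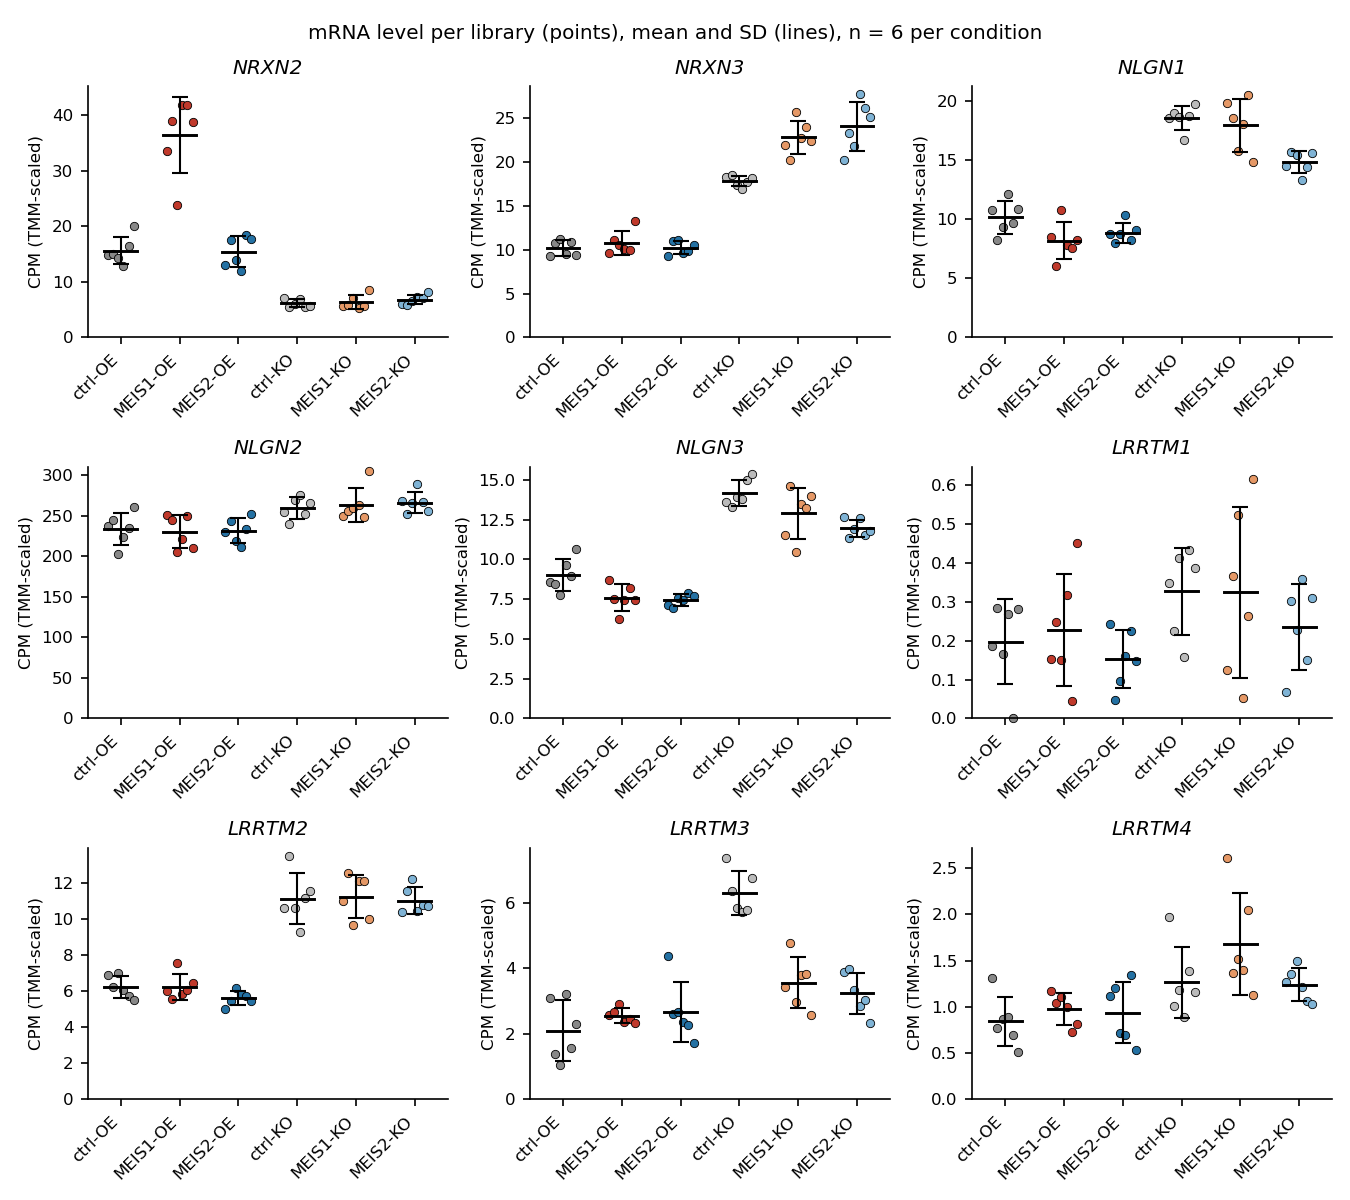
Level of each member in CPM (vertical axes, each starting at 0) in the 6 conditions. Points are single libraries, horizontal lines are means and error bars are SD over 6 libraries; NRXN2 in MEIS1-OE lies above all other conditions, and LRRTM3 in ctrl-KO lies above both knockouts.

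Among the neuroligins, the postsynaptic partners of neurexins, NLGN1 and NLGN3 had small differences and NLGN2 had none that passed outside the comparison of controls. NLGN1 (GRCh37 chr3:173114074-174012162, plus strand) ran from 8.20 to 12.1 CPM in ctrl-OE (median 10.2) and from 6.001 to 10.8 in MEIS1-OE (median 8.02), so the groups overlapped. NLGN1 fell by 0.31 on the log2 scale in edgeR, with a standard error of 0.10 and adjusted p = 0.0377. In MEIS2-OE its mean was 8.86 ± 0.851 CPM, and the interval of its log2(fold-change) was -0.39 to 0.00. The call was lost without replicate 1, 2, 4, 5 or 6 of every condition, at adjusted p of 0.121, 0.0688, 0.21, 0.116 and 0.0953, and at 0.143 when only the groups compared were fitted. In MEIS2-KO, NLGN1 ran from 13.3 to 15.7 CPM (median 14.9), below the whole ctrl-KO range of 16.7 to 19.7 CPM (median 18.7). There the log2(fold-change) was -0.32 (SE 0.09, adjusted p = 0.0200 with edgeR). Without replicate 1 or 5 it was -0.32 and -0.31, with adjusted p of 0.079 and 0.0863. In MEIS1-KO, NLGN1 had a mean of 17.9 ± 2.23 CPM beside 18.5 ± 1.01 in ctrl-KO, and the interval of the difference was -0.24 to 0.14.

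NLGN3, the neuroligin gene on the X chromosome (GRCh37 chrX:70364671-70395105, plus strand), ran from 7.77 to 10.6 CPM in ctrl-OE (median 8.74) and from 6.24 to 8.73 in MEIS1-OE (median 7.48), again with overlap. The log2(fold-change) was -0.24 (SE 0.08, adjusted p = 0.0476 with edgeR). It did not pass without replicate 2, 4, 5 or 6, at adjusted p of 0.0897, 0.235, 0.0851 and 0.219, nor with only the groups compared in the fit (0.144) or with no filter on low counts (0.0587). In MEIS2-OE the range was 6.93 to 7.91 CPM (median 7.53), 5 of 6 libraries lay below all controls, and the log2(fold-change) was -0.27 with an adjusted p of 0.101, which passed at 0.0255 without replicate 3. In MEIS2-KO, all 6 libraries, from 11.4 to 12.7 CPM (median 11.8), lay below the ctrl-KO range of 13.3 to 15.4 (median 13.9). The log2(fold-change) was -0.24 (SE 0.08, adjusted p = 0.0332 with edgeR), and without replicate 2, 4, 5 or 6 the adjusted p was 0.0814, 0.0756, 0.165 and 0.105. In MEIS1-KO it was -0.14 with an adjusted p of 0.529.

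NLGN2 (GRCh37 chr17:7308193-7323179, plus strand), the neuroligin of inhibitory synapses, ran from 203 to 260.1 CPM in ctrl-OE with a median of 236, and its median was 232 in both MEIS1-OE and MEIS2-OE. In the knockout conditions the medians were 260.0 CPM in ctrl-KO, 257 in MEIS1-KO and 266 in MEIS2-KO. The groups overlapped in all 4 comparisons with a control. Over these the log2(fold-change) lay between -0.02 and 0.04, and the widest interval bounds were -0.14 and 0.15, the narrowest intervals among the members.

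LRRTM3 (GRCh37 chr10:68685794-68861309, plus strand), an LRRTM family member with a window printed above, had the largest fall. Its level ran from 5.71 to 7.35 CPM in ctrl-KO (median 6.09), from 2.57 to 4.77 in MEIS1-KO (median 3.61) and from 2.31 to 3.97 in MEIS2-KO (median 3.19). All 6 libraries of each knockout lay below all 6 controls. The means were 6.29 ± 0.660, 3.56 ± 0.768 and 3.23 ± 0.638 CPM, from 99 to 140 counts per control library and 45 to 91 per knockout library. LRRTM3 fell by 0.82 on the log2 scale in MEIS1-KO (SE 0.18, adjusted p = 0.0102) and by 0.97 in MEIS2-KO (SE 0.18, adjusted p = 5.3e-04), both with edgeR and both past 0.58. The MEIS1-KO call was lost without replicate 6, at an adjusted p of 0.056 and a log2(fold-change) of -0.72. The MEIS2-KO call held under all 13 alternatives.

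Activation did not move LRRTM3 past the test. It ran from 1.04 to 3.22 CPM in ctrl-OE (median 1.94), 2.34 to 2.92 in MEIS1-OE (median 2.52) and 1.71 to 4.38 in MEIS2-OE (median 2.48), and the groups overlapped. The intervals of the log2(fold-change) were -0.13 to 0.71 and -0.06 to 0.77. In the MEIS1 contrast 2 of 9 members passed (3.48% of all genes): NRXN2, given above, and LRRTM3 at 1.11 (SE 0.27, adjusted p = 0.0119 with edgeR), which was lost without replicate 3 or 5 at adjusted p of 0.0962 and 0.0691. In the MEIS2 contrast 2 of 9 passed (2.57% of all genes). LRRTM3 was at 1.33 (SE 0.27, adjusted p = 0.00295) and NRXN3 at -0.43 (SE 0.11, adjusted p = 0.0222), both with edgeR, and the NRXN3 call was lost without replicate 2, 4 or 5 at adjusted p of 0.0544, 0.121 and 0.188. In MEIS1-KO against MEIS2-KO, 0 of 9 members passed with edgeR or DESeq2 (0.0152% of all genes), and 1, NLGN1, had an unadjusted p below 0.05 with a log2(fold-change) of 0.27 and an interval of 0.09 to 0.46.

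The other LRRTM genes did not pass in a comparison with a matched control. LRRTM2 (GRCh37 chr5:138204610-138211057, minus strand) had means of 6.23 ± 0.593 CPM in ctrl-OE, 6.23 ± 0.707 in MEIS1-OE and 5.61 ± 0.391 in MEIS2-OE, and between 11.01 and 11.2 CPM in the 3 knockout conditions. LRRTM4 (GRCh37 chr2:76974811-77820445, minus strand) had means from 0.843 to 1.68 CPM, from 11 to 42 counts per library. LRRTM1 (GRCh37 chr2:80515476-80531877, minus strand) had 0 to 12 counts per library. Its intervals were the widest, such as -1.41 to 0.67 in MEIS2-OE, so the values are compatible with no change and with sizeable changes in either direction.

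LRRTM1, LRRTM2 and LRRTM3 lie within CTNNA2, CTNNA1 and CTNNA3, genes of the alpha-catenin family of cell adhesion, on the opposite strand. The libraries were stranded, but the strand setting of the counting is not given in the sources used here, so reads of a gene and its partner cannot be told apart with certainty. In ctrl-KO, CTNNA1 had a mean of 612 CPM, far above the 11.1 of LRRTM2. CTNNA2 had 6.06 CPM there, also above the 0.327 of LRRTM1. By contrast, CTNNA3 had 1 to 12 counts per library, below the 25 to 140 counts of LRRTM3. In ctrl-KO it had a mean of 0.496 ± 0.105 CPM, in MEIS1-KO 0.382 ± 0.135 and in MEIS2-KO 0.416 ± 0.173. None of the 3 CTNNA genes passed in the 4 comparisons with a matched control. All 3 passed in ctrl-OE against ctrl-KO, as lower in ctrl-OE. Their log2(fold-change) there was -0.20 for CTNNA1, -1.42 for CTNNA2 and -1.93 for CTNNA3. The part of CTNNA reads in the LRRTM values of that comparison was not tested.

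The controls differed from each other in more genes than any condition differed from its control. In ctrl-OE against ctrl-KO, 8 of 9 members passed, beside 51.4% of all tested genes with 1 higher (27.5% of all genes) and 7 lower (23.9%) in ctrl-OE. The median log2(fold-change) of the members was -0.70, beside 0.05 over all genes. NRXN2 was 1.35 higher on the log2 scale in ctrl-OE (SE 0.14, adjusted p = 6.6e-11 with edgeR) and its 6 libraries lay above all of ctrl-KO. LRRTM3 at -1.59, NLGN1 at -0.87, LRRTM2 at -0.83, NRXN3 at -0.81 and NLGN3 at -0.66 had all 6 ctrl-OE libraries below all of ctrl-KO. LRRTM4 at -0.58 and NLGN2 at -0.15 passed with overlapping groups. LRRTM4 was lost without replicate 2, 3, 5 or 6 (adjusted p from 0.0531 to 0.101) and NLGN2 without replicate 3 or 4 (adjusted p of 0.16 and 0.162). LRRTM1 at -0.70 did not pass (adjusted p = 0.193).

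The control libraries differ in vector, in Cas9 form and in activator content, and these cannot be told apart. Neural stem cell markers moved with the same comparison: 7 of 8 were lower in ctrl-OE, and their summed level was 2930 to 3799 CPM per library there and 4334 to 4846 in ctrl-KO. Of the 9 tested neuronal markers, 2 were higher and 3 lower in ctrl-OE, so they did not move together. Their summed level was 473 to 669 CPM in ctrl-OE and 1023 to 1057 in ctrl-KO. In bulk RNA, fewer cells of a type and less RNA per cell cannot be told apart. In MEIS2-KO, where NLGN1, NLGN3 and LRRTM3 fell, SOX1, PAX6 and FABP7 fell and VIM rose among the 8 neural stem cell markers, and SYP and DCX fell and SYN1 and GAP43 rose among neuronal ones. Their summed levels were 4893 to 5976 CPM for stem cell markers and 863 to 1057 for neuronal markers. In MEIS1-KO, PAX6 and SYP fell and VIM rose, and in MEIS1-OE SOX1 fell and GAP43 rose. The part of these markers in the members' results was not tested.

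The genes beside the members on the chromosome were looked up, 3 on each side. RASGRP2 (GRCh37 chr11:64494383-64512928), a guanine nucleotide exchange factor for Rap proteins, lies on the same strand, with 3713 bases between its end and the start of NRXN2. RASGRP2 ran from 4.34 to 6.24 CPM in ctrl-OE (median 5.18) and from 8.86 to 13.7 in MEIS1-OE (median 12.4), with no overlap. In MEIS1-OE RASGRP2 rose by 1.22 on the log2 scale in edgeR, with a standard error of 0.11 and adjusted p = 3.5e-11, beside the 1.23 of NRXN2. RASGRP2 also passed in the MEIS1 contrast at 0.92, in MEIS1-OE against MEIS2-OE at 1.09, in ctrl-OE against ctrl-KO at 0.81 and in MEIS2-KO at 0.42 (adjusted p = 0.0347 with edgeR), where NRXN2 did not pass. Of the other neighbours of NRXN2, CCDC88B rose by 0.67 on the log2 scale (adjusted p = 0.0171) and PYGM, muscle glycogen phosphorylase, chosen after its value was seen, by 0.50 (adjusted p = 4.9e-04), both in edgeR. RPS6KA4, SLC22A11 and SF1 did not pass in that MEIS1-OE comparison. CCDC88B also passed in MEIS1-OE against MEIS2-OE, at 0.80. The other neighbours of NRXN2 passed in ctrl-OE against ctrl-KO too, so RASGRP2 was not alone there. CCDC88B was at 1.93, PYGM at 0.58, RPS6KA4 at 0.50, SF1 at -0.22 and SLC22A11, with a mean of 0.0262 CPM, at 3.23. In that comparison 51.4% of all tested genes passed. No neighbour of NRXN3 or LRRTM3 passed together with a log2(fold-change) above 0.58 in the knockouts. SIRT1, a deacetylase gene on the plus strand 959 kb downstream of the LRRTM3 start, passed in the MEIS1 contrast at 1.06. Its mean was 64.5 CPM in ctrl-OE and 117.8 in MEIS1-OE, a comparison in which LRRTM3 did not pass. In ctrl-KO and MEIS1-KO the SIRT1 means were 59.8 and 52.4 CPM.

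**Figure D4:**
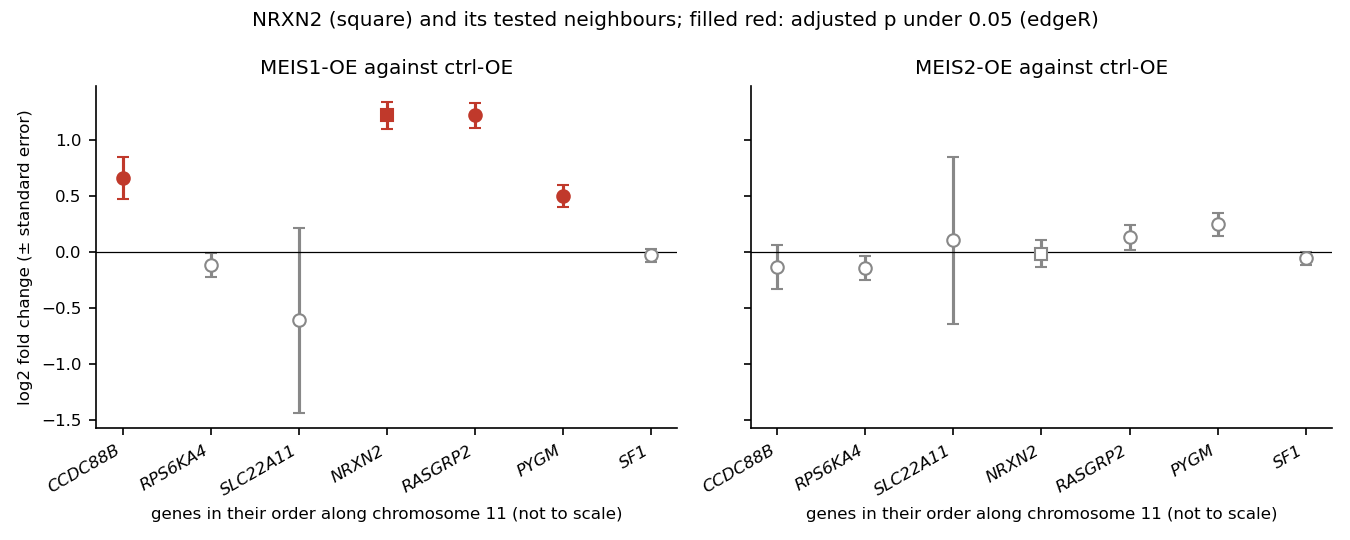
Log2(fold-change) with standard error of NRXN2 (square) and the 6 nearest tested genes (circles) in MEIS1-OE and MEIS2-OE against ctrl-OE, in their order along chromosome 11, which is not to scale. Filled red points passed at an adjusted p below 0.05 in edgeR: NRXN2, RASGRP2, CCDC88B and PYGM in MEIS1-OE and none in MEIS2-OE.

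Genes whose levels followed those of a member were named by Pearson's r of log2 CPM over the 36 libraries among 13463 genes, as a description. The 36 libraries share the difference between the activation and knockout systems, and r within a system was not computed. NRXN2 was followed most closely by BRSK1 (r = 0.980), a kinase gene, and by INPP5J and HAPLN4 (both 0.979). INPP5J had a mean of 11.7 CPM in ctrl-OE, 56.9 in MEIS1-OE and 2.13 in ctrl-KO. NRXN3 was followed by KCTD12 (0.978), LRRC4C (0.976), which encodes the netrin-G ligand NGL-1, and SORBS2 (0.976). Among the neuroligins, NLGN1 was followed by FANCI (0.980), NLGN2 by TSC2 (0.950) and NLGN3 by LRIG1 (0.957), and LRRTM2 by DROSHA (0.967). LRRTM3 was followed by ANGPT1 (0.900), the gene of angiopoietin-1, and by ADAMTS3 and PVALB (both 0.873). For LRRTM4 the highest r was 0.741, with PAIP2B.

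Other genes of the pathway were taken from lists of synaptic ligands, masking proteins, adaptors, scaffolds, further organisers, proteoglycans, splicing regulators and sheddases, 105 genes with 99 tested. In MEIS1-OE 10 of the 99 were higher (10.1%, beside 5.52% of all tested genes) and 7 lower (7.07%, beside 3.58%). In MEIS2-OE 4 were higher (4.04%, beside 1.07%) and 0 lower (beside 0.279%). In MEIS1-KO 2 were higher (2.02%, beside 1.03%) and 1 lower (1.01%, beside 0.432%). In MEIS2-KO 3 were higher (3.03%, beside 4.04%) and 8 lower (8.08%, beside 5.98%), which is near the share over all genes. The median log2(fold-change) of the pooled 99 genes lay between -0.04 and 0.04 in these comparisons, while single lists lay further out, such as 0.82 for the 2 masking genes in MEIS1-OE. Among 14 tested genes listed under secreted or surface ligands of neurexins, 2 rose in MEIS1-OE: C1QL4 by 1.70 on the log2 scale (1.37 to 4.43 CPM, adjusted p = 5.7e-09 with edgeR) and NXPH4, a neurexophilin, by 0.87 (1.29 to 2.37 CPM, adjusted p = 0.0027). Whether the C1QL4 protein itself binds neurexins was not examined. Both MDGA genes, whose proteins mask neuroligins from neurexins, rose: MDGA1 by 1.29 (2.13 ± 0.340 to 5.19 ± 0.688 CPM) and MDGA2, chosen after its value was seen, by 0.35 (4.84 ± 0.623 to 6.13 ± 0.740 CPM). Among 36 tested further organisers, NTNG1, netrin-G1, rose by 1.95 (0.511 to 1.99 CPM), and SLITRK3 fell by 0.76. The study named MDGA1 and NTNG1 as MEIS1 targets from these same libraries, so their direction here is not independent evidence. The same holds for the 0.82 of the 2 masking genes, which include MDGA1. MMP9, a protease known to cleave NLGN1, rose by 1.39, from 0.247 to 0.645 CPM.

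In MEIS2-KO, LRRC4C rose by 0.58 (13.7 ± 0.926 to 20.5 ± 1.78 CPM), 2 of 18 tested postsynaptic scaffold genes fell and none rose, and 5 of 36 further organisers fell while 3 rose. Over all tested genes 5.98% fell and 4.04% rose, so these counts lie within a few genes of that share. KHDRBS2, an RNA-binding regulator of neurexin splicing chosen after its value was seen, fell by 0.37. In MEIS2-OE, the 4 that rose were TENM3, FLRT3 and ADGRL2, listed as LPHN2, which encode partners in trans-synaptic adhesion, and the proteoglycan gene SDC2, all chosen after their values were seen, by 0.48, 0.32, 0.20 and 0.17. In ctrl-OE against ctrl-KO, 20 of the 99 were higher (20.2%, beside 27.5% of all tested genes) and 49 lower (49.5%, beside 23.9%), with a median of -0.32 beside 0.05 over all genes.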

How the data were processed

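Poly-A RNA of 36 hNSC libraries was sequenced from both ends with 100 bases. The authors aligned the reads to hg19 with STAR, whose version is 2.4.2a in the design text and 2.7.0a in the submitters' processing notes, which also name Trimmomatic 0.39, and counted reads with HTSeq 0.6.0. The annotation and strand setting are not given in the sources used here. The deposited values are raw counts per gene symbol, and every column was matched to its condition by its label. Genes with at least 10 counts in all were kept and fitted with edgeR 4.0.16 in R 4.3.3 (TMM factors, quasi-likelihood F test, two-sided, Benjamini-Hochberg adjustment, prior count 0.125), with all 6 conditions in one fit as in the study's model. The biological coefficient of variation was 0.0915, and no pair of libraries agreed within sampling noise. In simulated data for MEIS1-OE against ctrl-OE over 19241 genes, 199 of 200 genes changed by a log2 fold of 1 were recovered, with 10 false calls. The changed genes were drawn only above a floor of expected counts. The recovery therefore does not hold for genes as low as LRRTM1 and LRRTM4, or for smaller changes. Positions and lengths came from GENCODE v44 on GRCh37; 87.0% of tested genes had a position. Members and gene lists were chosen with earlier results of these data known. All members were named, and other list genes only where past the test with a log2 fold change beyond 0.58, at most 4 per list and comparison (exceptions are marked in the text), as were neighbours where the member passed; for each member the 3 genes of highest r could be named. Alternatives were other size factors, filters, prior count, groups fitted, DESeq2 1.42.0, a replicate block and each replicate number left out. The check of same-numbered libraries gave a mean correlation of 0.0361 over 90 pairs, beside -0.00732 for libraries of other numbers. Numbers were therefore not taken to pair libraries, although a weak effect of the set is not excluded.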

Additional observations from a re-analysis of the deposited data

Results flagged for a closer look

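NRXN2 differed between the activation conditions: MEIS1-OE was 1.24 above MEIS2-OE on the log2 scale by the direct test (adjusted p = 3.8e-10 with edgeR), with 6 of 6 MEIS1-OE libraries above all of MEIS2-OE.

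Of 54 groups of 6 libraries, 3 held a library far from the rest, where chance alone gives about 1 in 20 groups. These were NLGN1 in ctrl-KO replicate 4 at 16.7 CPM (the others 18.6 to 19.7), NLGN2 in MEIS1-KO replicate 6 at 305 CPM (the others 248 to 263) and LRRTM3 in MEIS2-OE replicate 1 at 4.38 CPM (the others 1.71 to 2.67).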

How the results depend on the processing

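Of 1041 results for single members under the alternatives, 1008 kept their side of the threshold, 32 lost the call and 1 gained it. The sign changed in 48, of which 0 passed the test in either fit. The number of members past the test fell to 1 in MEIS1-OE with only the groups compared in the fit, and with the added log2 fold threshold of 0.58 to 1 in each of MEIS1-OE, MEIS1-KO, MEIS2-KO and the MEIS2 contrast. With each replicate number left out, the count ranged from 1 to 3 in MEIS1-OE, 0 to 1 in MEIS2-OE, 1 to 2 in MEIS1-KO, 2 to 4 in MEIS2-KO and 1 to 2 in both contrasts. The replicate block, fitted although the numbers were not taken to pair libraries (16 of 90 same-numbered pairs correlated above 0.1), gave 3, 0, 2 and 4 members in these 4 comparisons with controls, as without it. Counts over all genes moved by over 1.5 times in MEIS1-KO, from 287 to 458 with the block and 439 with DESeq2, in the MEIS2 contrast, from 506 to 835 with only the groups compared, and in MEIS1-KO against MEIS2-KO, from 3 to 7 with DESeq2. With a replicate number left out, their lowest values were 1152 of 1791 in MEIS1-OE, 163 of 266 in MEIS2-OE, 108 in MEIS1-KO, 946 of 1974 in MEIS2-KO, 398 of 686 in the MEIS1 contrast and 226 in the MEIS2 contrast, with fewer samples in the fit. DESeq2 gave the same counts of members in all 9 comparisons. Apart from the fits with fewer samples, the cause of these changes was not tested. The counts of LRRTM1 and LRRTM4, at most 42 per library, limit what could be detected for them.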
